A study of Homo sapiens with 20 samples.

Results

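TRAK2, KCNAB2 and VEPH1 each carried a stretch of H3K4me3 that was present in all 8 libraries of the other groups and had no listed peak in either library of dabrafenib-resistant WM164 cells. Those stretches are called the erased sites here. They were chosen on the covered bases in these same peak lists, for that difference, so their absence from the resistant pair is a description and was not tested. Every peak overlapping the 3 gene windows in GRCh37 was taken from the 10 peak lists, and peaks no more than 1000 bp apart, over all libraries, were joined into regions. This gave 10 regions from 123 peaks, out of 31428 regions and 306884 peaks in all. TRAK2 held 3 regions, KCNAB2 4 and VEPH1 3, of which 1 per gene was the erased site.

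WM164 is a human melanoma cell line with a mutant BRAF kinase, and dabrafenib inhibits that kinase. Each group had 2 libraries. Parental cells received the solvent DMSO for 3 days, colonies were cells exposed to 50 nM dabrafenib for 45 days, and resistant cells had the same dose for more than 90 days. The other groups were WM164 cells overexpressing GFP or NRAS Q61K, an activated RAS protein. The sources used here give no vector, promoter, number of clones, dabrafenib dose or DMSO exposure for those 2 lines. All 5 groups share the WM164 background. Replicates are not said to come from separate cultures, so a p-value here covers just the spread between these libraries, which may be technical. The labelled melanoma identity could not be checked on marker genes, because the annotation at hand is for another build.

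H3K4me3, trimethylation of lysine 4 on histone H3, is deposited mainly around active transcription start sites and is read by proteins that help start transcription. Broad stretches of the mark are typical of strongly used starts, while short and weak stretches also occur at enhancers. TRAK2 is an adaptor that links mitochondria, through the Miro proteins, to kinesin motors. KCNAB2 is a cytoplasmic beta subunit of voltage-gated potassium channels of the Shaker type and has the fold of an aldo-keto reductase. VEPH1 is a pleckstrin homology domain protein related to fly melted and has been described as a regulator of TGF-beta signalling.

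No genome of the build of the peak lists was at hand, so the sequence of the erased sites is not shown. The starts of the genes are shown instead, because the regions nearest the starts are what the erased sites are set against. RefSeq on GRCh38.p14 lists 1 start for TRAK2, 4 for KCNAB2 and 4 for VEPH1. The sequences below are the 250 bases before the first start of each gene and before the second start of KCNAB2, written 5′ to 3′. Capitals mark the dinucleotide CG, which reads the same on both strands.
TRAK2, chr2:201451459-201451708, reverse strand: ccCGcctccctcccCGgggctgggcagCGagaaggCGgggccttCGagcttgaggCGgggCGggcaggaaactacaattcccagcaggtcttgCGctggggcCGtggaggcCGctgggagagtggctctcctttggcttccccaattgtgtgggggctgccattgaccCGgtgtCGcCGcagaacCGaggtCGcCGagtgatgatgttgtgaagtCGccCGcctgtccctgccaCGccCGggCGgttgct
KCNAB2 first start, chr1:5992426-5992675, forward strand: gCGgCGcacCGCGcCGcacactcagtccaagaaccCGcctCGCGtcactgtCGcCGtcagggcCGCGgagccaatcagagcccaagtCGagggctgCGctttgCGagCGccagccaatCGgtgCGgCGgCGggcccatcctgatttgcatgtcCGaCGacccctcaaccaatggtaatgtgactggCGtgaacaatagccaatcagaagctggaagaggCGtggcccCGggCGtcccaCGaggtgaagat
KCNAB2 second start, chr1:6026083-6026332, forward strand: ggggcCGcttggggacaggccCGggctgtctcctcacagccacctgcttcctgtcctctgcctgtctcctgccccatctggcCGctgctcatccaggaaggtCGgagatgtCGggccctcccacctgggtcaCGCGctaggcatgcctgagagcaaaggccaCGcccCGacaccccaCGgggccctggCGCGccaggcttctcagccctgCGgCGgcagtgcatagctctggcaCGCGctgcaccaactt
VEPH1, chr3:157503606-157503855, reverse strand: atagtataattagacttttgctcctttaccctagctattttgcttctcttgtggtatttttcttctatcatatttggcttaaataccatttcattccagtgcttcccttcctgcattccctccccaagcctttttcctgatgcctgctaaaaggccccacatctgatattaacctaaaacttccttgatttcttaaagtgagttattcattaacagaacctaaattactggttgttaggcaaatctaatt

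The TRAK2 sequence held 21 CG dinucleotides, and 30.2% of the 35116 RefSeq promoters cut to the same length had as many or more. The first KCNAB2 start had 27 (17.7% of promoters had as many or more) and its second start had 16 (41.0%). The VEPH1 sequence had 0, as few as in 6.06% of promoters, and its later 3 starts had 2 to 5. The median promoter had 11. Mammalian starts rich in CG are commonly covered by H3K4me3, while starts poor in it are marked less often. The TRAK2 window of RefSeq overlaps that of STRADB, a pseudokinase gene read from the opposite strand, so a peak at that start cannot be given to 1 gene. PTX3, which encodes a secreted pentraxin, lies inside VEPH1. Whether an erased site coincides with a later start of KCNAB2 or VEPH1 was not tested, since the builds differ. The sequences before the 4 VEPH1 starts lie between 157495507 and 157503855 on GRCh38. On GRCh37 the VEPH1 site ends at 157100082, and the window ends at 157222000, on the side where the gene starts. Within each build, the site thus lies much further from that end than the listed starts lie from each other. In RefSeq the later KCNAB2 starts follow the first by 33.7, 42 and 53.2 kb. In the peak lists the strongest summit of the KCNAB2 erased site followed that of the region at the beginning of the gene by 33.5 to 34.2 kb in 6 libraries, and by 39.3 and 35.9 kb in colony 1 and colony 2. In both colony libraries the summit at the beginning of the gene lay lower, at 6051514 and 6051526, than in those 6 (6053307 to 6053454). The colony 2 summit of the erased site, at 6087430, lay within the range of those 6. The RefSeq and peak-list spacings come from different builds and are only set side by side. The KCNAB2 site is therefore not called internal in the sense of lying away from a start.

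The libraries differed in ways that touch every region. The lists held 19111 to 45376 peaks on the autosomes and X, fewest in the resistant and most in the GFP libraries, over 34.1 to 48.5 Mb. The shortest peak, which the caller by default ties to the fragment length, was 255 and 256 bp in resistant, 282 and 284 bp in colony, and 142 to 202 bp in the other libraries. All lists reached down to a −log10 q between 1.31 and 1.40. At regions covered in all 10 libraries, widths were lower in the resistant libraries by 0.19 and 0.22 (log2) than the average library and higher in the GFP libraries by 0.13 and 0.11. Changes in width were therefore measured after centring each library on those regions. With 2 libraries against 2, an exact two-sided permutation test cannot go below 0.333, so widths were compared with limma across 23153 regions.

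The TRAK2 erased site (chromosome 2, band 2q33.1, 202278471 to 202286179) is 7709 bp long. Peaks covered 5425 and 5663 bp of it in parental, 6919 and 7709 bp in colony, 4986 and 5437 bp with GFP, 4968 and 4921 bp with NRAS Q61K and none in either resistant library. Colonies thus lay above all other libraries, parental and GFP libraries overlapped, and the NRAS Q61K pair lay just below the GFP pair. In colonies the site was among the strongest peaks listed: its summit exceeded 97.2% and 97.1% of the peaks of the colony 1 and colony 2 lists. In the other 6 marked libraries it exceeded 66.1% to 80.3% of their own lists. Such shares, here and below, rank the peaks of 1 list by −log10 q and not by stacked reads.

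The KCNAB2 erased site (chromosome 1, band 1p36.31, 6084513 to 6091260) is 6748 bp long. Peaks covered 4928 and 4387 bp in parental, 6475 and 6467 bp in colony, 3704 and 3605 bp with GFP, 5849 and 4708 bp with NRAS Q61K and none in resistant libraries. The order ran from colony at the top to GFP at the bottom, with parental and NRAS Q61K libraries overlapping between them. Its summit exceeded 67.0% to 84.9% of the peaks of the same list in the 8 marked libraries.

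The VEPH1 erased site (chromosome 3, band 3q25.32, 157096229 to 157100082) is 3854 bp long, the shortest of the 3. Peaks covered 3496 and 3349 bp in parental, 3648 and 3854 bp in colony, 3116 and 2683 bp with GFP, 2676 and 2330 bp with NRAS Q61K and none in resistant libraries. The order was colony, parental, GFP and NRAS Q61K. No group overlapped the next, but GFP 2 and NRAS Q61K 1 were nearly equal. Its summit exceeded 90.2% and 95.9% of the peaks of the colony lists and 65.1% to 86.3% of those of the other 6.

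**Figure D1:**
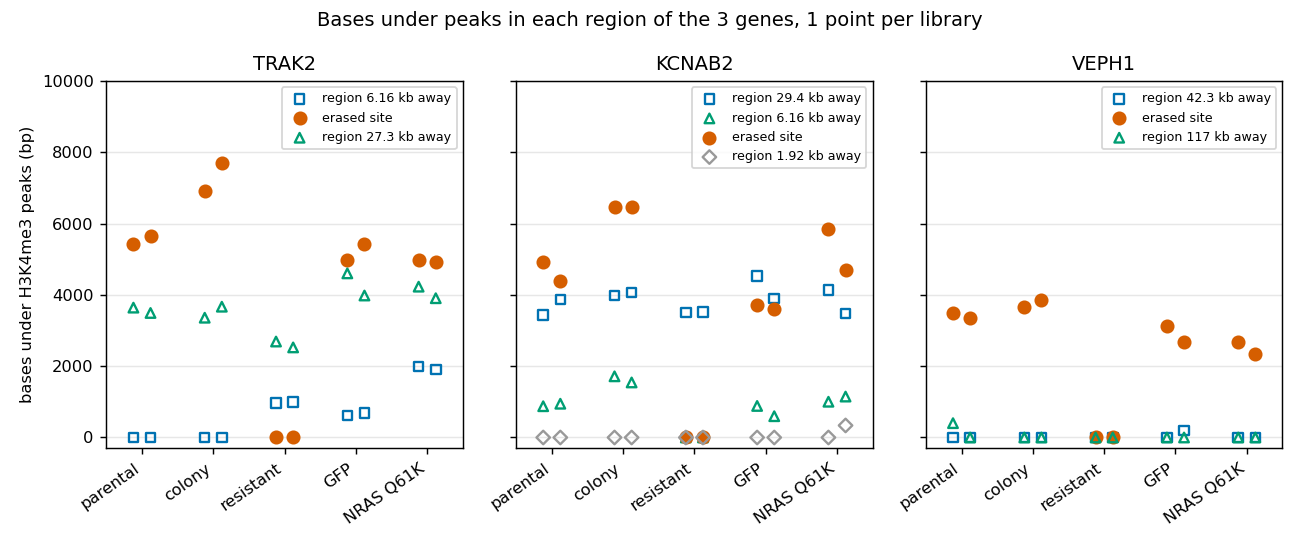
Bases under H3K4me3 peaks (vertical axis, bp) in each library (1 point each, 2 per group on the horizontal axis) for every region of TRAK2, KCNAB2 and VEPH1; filled circles are the erased sites and open symbols the other regions, named by their distance from the erased site. The erased sites range from 2330 to 7709 bp in 8 libraries and lie at 0 in the resistant pair, where the TRAK2 and KCNAB2 regions 27.3 and 29.4 kb away keep 2527 to 3524 bp.

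The summits of the erased sites were taller than the median of the 500 weakest peaks of each list, which was 12 to 18 stacked reads. Those weakest peaks began at 9 to 15 stacked reads over the 10 lists. Their tallest had 63 to 202, so some were as tall as an erased site. Each deposited fold and p-value of a peak fixes how many reads were stacked at its summit and how many the caller expected there. At the TRAK2 site 81 and 66 reads were stacked in parental, 114 and 109 in colony, 52 and 51 with GFP and 48 and 45 with NRAS Q61K, over an expected 4.09 to 6.90. The KCNAB2 site had 45 to 88 and the VEPH1 site 42 to 104 stacked reads at the strongest summit. In the resistant lists the 500 weakest peaks began at 14 and 15 stacked reads, with medians of 16 and 18 and maxima of 202 and 154. A stack well under those medians at an erased site would go unlisted. The lists thus show the absence of a peak and not of all signal. Reads at a summit rise with sequencing depth and fragment length, so they are not compared between groups.

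The peaks of the 8 marked libraries shared a part of each site. Bases covered in all 8 libraries made up 3805 bp (49.4%) of the TRAK2 site, 3383 bp (50.1%) of the KCNAB2 site and 2325 bp (60.3%) of the VEPH1 site. At TRAK2 the strongest summit lay between 202284681 and 202284915 in 7 of the 8 libraries, and at 202283811 in NRAS Q61K 2. At VEPH1 all 8 lay between 157098052 and 157099159. At KCNAB2 the strongest summit lay between 6086826 and 6087461 in 7 libraries, but in colony 1 it lay at 6090793.

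Width at 2 of the 3 sites was called different between groups that the choice of sites had not set apart. The spread behind these calls was estimated over all 5 groups. The resistant pair, empty by that choice, entered it with almost no spread of its own. With only the 2 compared groups in the fit, the TRAK2 call in colonies was lost (limma adjusted p = 0.0723). So were the KCNAB2 calls in NRAS Q61K (0.100) and in GFP cells (0.197). In colony against parental cells 2 of the 3 sites were called, both wider, where 21.0% of all tested regions were called (4.29% wider and 16.7% narrower). In NRAS Q61K against GFP cells 1 of 3 was called, wider, where 7.23% of all were (5.06% wider and 2.18% narrower). In GFP against parental cells 1 of 3 was called, narrower, where 4.36% of all were (2.67% wider and 1.69% narrower). At KCNAB2 the site was wider in colony than in parental cells, 6471 ± 5.66 against 4658 ± 383 bp (SD, n = 2; log2 change 0.43, SE 0.08, limma adjusted p = 0.00706). It was also wider in NRAS Q61K than in GFP cells, 5279 ± 807 against 3655 ± 70.0 bp (log2 change 0.55, SE 0.08, limma adjusted p = 0.00868), and narrower in GFP than in parental cells (log2 change -0.46, SE 0.08, limma adjusted p = 0.0253). The last of these calls was lost without each of the 4 libraries in turn (limma adjusted p = 0.0703 to 0.128) and without centring (0.146), and the NRAS Q61K call without NRAS Q61K 1 (0.0813). The colony call held under every alternative run. Log2 changes in this text are of covered bases plus 200 bp.

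At TRAK2 the site was wider in colony than in parental cells, 7314 ± 559 against 5544 ± 168 bp (log2 change 0.36, SE 0.09, limma adjusted p = 0.0213). Without parental 1 the log2 change was 0.27 (limma adjusted p = 0.126) and without colony 2 it was 0.30 (0.114), so both libraries decide that call. TRAK2 did not pass in GFP against parental (log2 change -0.21, limma adjusted p = 0.288) or in NRAS Q61K against GFP (-0.025, limma adjusted p = 0.959). None of the 3 comparisons passed at VEPH1: the log2 change was 0.10 in colony against parental (limma adjusted p = 0.539), -0.35 in GFP against parental (0.0963) and -0.15 in NRAS Q61K against GFP (0.501). Colony and GFP cells were compared with the same parental libraries.

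The added width of colonies over parental cells lay mostly at 1 end of the KCNAB2 and TRAK2 sites. At VEPH1 the difference was not called (limma adjusted p = 0.539). With the middle part of that site full in all 8 libraries, a difference there could lie only at the ends. The sites were cut into 3 equal parts after their values had been seen, so these values are given with no test. In the part of the KCNAB2 site with the highest coordinates (6089012 to 6091260), 803 and 778 bp were covered in parental, 2066 and 1968 bp in colony, 311 and 466 bp with GFP and 1456 and 679 bp with NRAS Q61K. The other parts of the KCNAB2 site were covered over 1458 to 2250 bp in all 8 libraries. The high-coordinate part held a summit of its own between 6090633 and 6090793 in all 8 libraries. In colony 1 this second summit, with 83 stacked reads, was the strongest of the whole site. In colony 2 it had 66 stacked reads, against 61 at the summit with the highest −log10 q (6087430).

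At TRAK2 the part with the lowest coordinates (202278471 to 202281040) differed most between colony and parental libraries. It was covered over 1346 and 1331 bp in parental, 2293 and 2570 bp in colony, 582 and 1424 bp with GFP and 1108 and 819 bp with NRAS Q61K. The site was 1 unbroken peak in colony 2 and 2 peaks in colony 1, against 4 to 7 peaks in the other 6 marked libraries. At VEPH1 the middle part was fully covered, over 1284 bp, in all 8 libraries. The part with the lowest coordinates (157096229 to 157097513) had 1061 and 993 bp in parental, 1108 and 1285 bp in colony, 781 and 374 bp with GFP and 492 and 141 bp with NRAS Q61K. The part with the highest had 1151 and 1072 bp in parental, 1256 and 1285 bp in colony, 1051 and 1025 bp with GFP and 900 and 905 bp with NRAS Q61K. Both ends thus had the order colony, parental, GFP and NRAS Q61K by group mean.

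**Figure D2:**
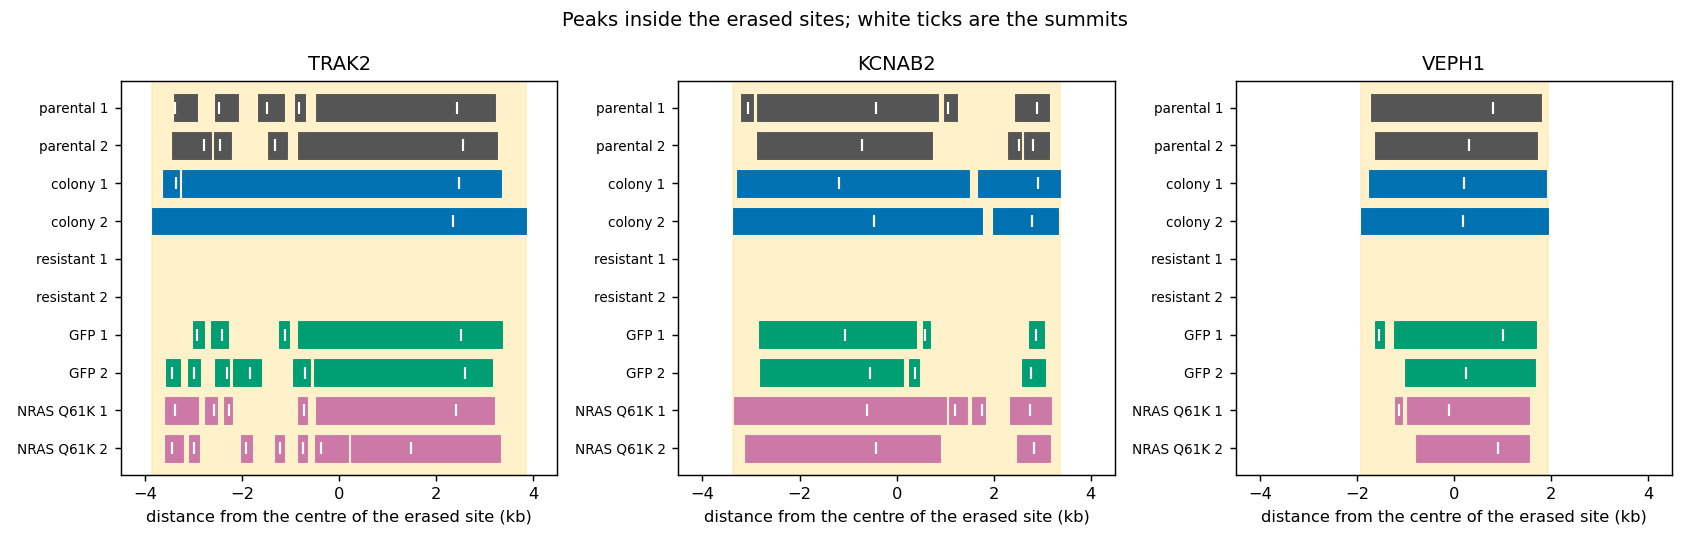
Peaks of each library (rows, coloured by group) inside the 3 erased sites, with distance from the centre of the site in kb on the horizontal axis, the site shaded and white ticks at the summits. Colony peaks fill 89.8% and 100% of the TRAK2 site and 96.0% and 95.8% of the KCNAB2 site, and both resistant rows are empty at all 3 sites.

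The other regions of the genes did not share the loss alike. Of the 7, 4 had a peak in at least 2 libraries and could be tested. In resistant against colony cells 2 of these 4 were called and in resistant against parental cells 3 of 4, where 22.5% and 28.6% of all tested regions were. These comparisons use the libraries by which the sites were chosen. The TRAK2 region at the high-coordinate end of the window, where this reverse-strand gene begins (chromosome 2, 202313489 to 202318595; 27.3 kb from the erased site), was marked in all 10 libraries. It was covered over 3643 and 3493 bp in parental, 3360 and 3669 bp in colony, 2692 and 2527 bp in resistant, 4604 and 3983 bp with GFP and 4231 and 3907 bp with NRAS Q61K. The resistant pair lay below every other library. After centring, the fall against parental cells was small (log2 change -0.23, SE 0.07, limma adjusted p = 0.0465) and was lost under 10 of 13 alternatives, leaving out any of its 4 libraries and the replicate block (0.0645) among them. Against colonies it did not pass (-0.18, limma adjusted p = 0.125), though it did without centring (-0.40, limma adjusted p = 0.0109). Over all tested regions 20.6% were called narrower in resistant than in parental cells and 11.5% than in colonies.

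On the other side of the TRAK2 erased site, 6.16 kb away, resistant libraries had peaks in a region that parental and colony libraries did not mark (chromosome 2, 202270248 to 202272312). The GFP and NRAS Q61K libraries, which mark the erased site, marked this region too. It was covered over 973 and 990 bp in resistant, 622 and 691 bp with GFP and 1992 and 1913 bp with NRAS Q61K. It was called wider in resistant cells than in colony (limma adjusted p = 2.87e-05) and parental cells (3.30e-05), in GFP than in parental cells (0.00464) and in NRAS Q61K than in GFP cells (0.00668). Over all regions 11.0%, 7.93%, 2.67% and 5.06% were called wider in those 4 comparisons. The parental and colony pairs had no covered bases in this TRAK2 region, so they added almost no spread to the fit behind these p-values. The resistant peaks there exceeded just 22.9% and 19.9% of the peaks of their own lists by −log10 q. With a −log10 q of 10 required within each list, only the NRAS Q61K libraries kept a peak there. At that limit the GFP call (0.955) and the resistant calls were lost (limma adjusted p = 0.426 against colony and 0.480 against parental). The GFP call was lost with only the 2 groups in the fit (limma adjusted p = 0.197), and the NRAS Q61K call without NRAS Q61K 1 (0.0655), without NRAS Q61K 2 (0.0661) and with only its 2 groups in the fit (0.0731).

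In resistant cells KCNAB2 kept the region at the low-coordinate end of its window, where this forward-strand gene begins, and lacked a second, shorter region along with the erased site. The kept region (chromosome 1, 6050207 to 6055131), 29.4 kb away, was covered over 3432 and 3866 bp in parental, 3981 and 4064 bp in colony, 3506 and 3524 bp in resistant, 4533 and 3896 bp with GFP and 4145 and 3483 bp with NRAS Q61K. By width the resistant pair lay within the range of the parental pair, while colony libraries lay above both pairs and GFP libraries above the parental pair. The strongest summit lay at 6051514 to 6051724 in colony and resistant libraries. In parental, GFP and NRAS Q61K libraries it lay at 6053307 to 6053454. It exceeded 55.1% to 70.2% of the peaks of the same list in colony and resistant libraries. In the other groups it exceeded 79.1% to 95.6%. Neither difference was tested. None of the 5 comparisons passed (limma adjusted p = 0.377 to 0.789). The log2 change was 0.038 (SE 0.10) in resistant against colony and 0.15 (SE 0.10) in resistant against parental cells, and both changed sign without centring (-0.18 and -0.049).

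The shorter region (chromosome 1, 6076501 to 6078355) lies 6.16 kb below the KCNAB2 erased site. It was covered over 877 and 947 bp in parental, 1716 and 1544 bp in colony, 885 and 597 bp with GFP, 1003 and 1148 bp with NRAS Q61K and none in resistant libraries. The fall in resistant cells was called against colony (limma adjusted p = 3.24e-05) and parental cells (1.35e-04) and held under all 13 alternatives each. The resistant pair, with no covered bases here, added almost no spread to the fit behind these p-values. Of regions marked in all 8 other libraries over a mean of 1000 to 2000 bp, 10.3% had no resistant peak, so such a loss was frequent at this length. It was also wider in colony than in parental cells (log2 change 0.69, SE 0.21, limma adjusted p = 0.0496), a call lost under 9 of 13 alternatives, including leaving out any of its 4 libraries (0.0688 to 0.187) and the replicate block (0.0745).

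The remaining regions were marked in 1 library each, so they had too few peaks to be tested. In KCNAB2 a peak of 338 bp (chromosome 1, 6093178 to 6093515) was listed in NRAS Q61K 2. In VEPH1 a peak of 201 bp (chromosome 3, 157053690 to 157053890) was listed in GFP 2 and one of 402 bp (157217142 to 157217543) in parental 1. The latter lies 117 kb from the erased site, on the side of the window where the gene starts. VEPH1 therefore had no region marked in all libraries, and neither resistant library had a peak anywhere in its window.

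**Figure D3:**
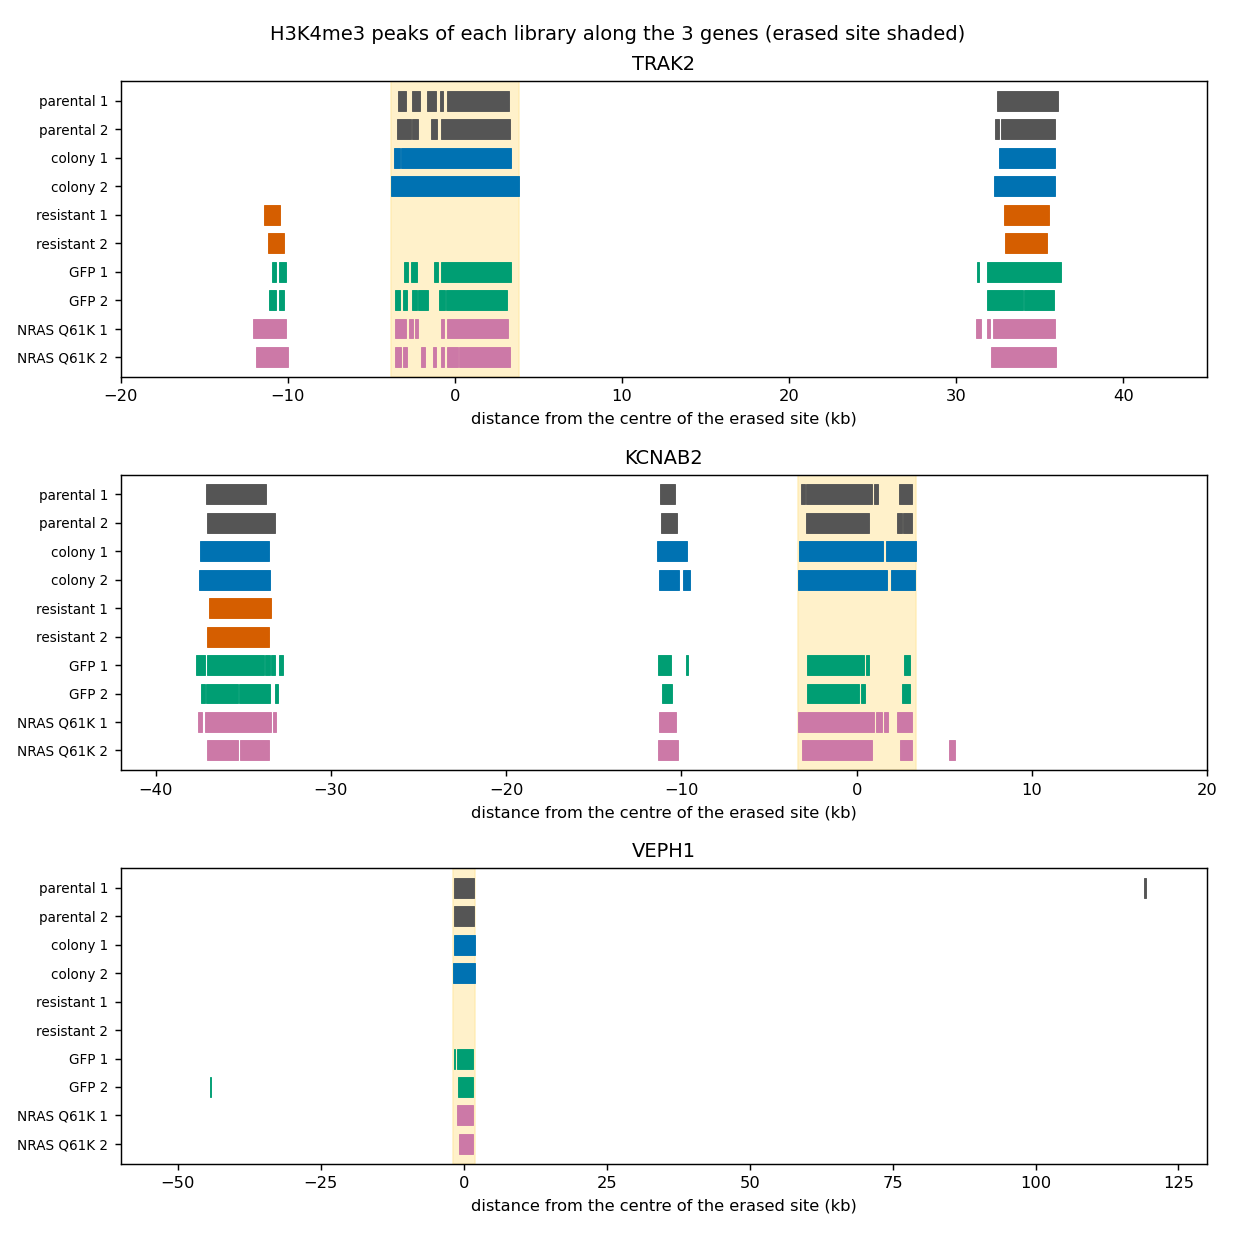
Peaks of each library (rows, coloured by group) along the 3 gene windows, with distance from the centre of the erased site in kb on the horizontal axis and the erased site shaded. Resistant rows keep the blocks about 30 kb away in TRAK2 and KCNAB2, carry an extra small block below the TRAK2 site, and are empty throughout VEPH1.

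Over the genome 12087 of 13141 regions marked in all 8 other libraries (92.0%) had a peak in both resistant libraries, and the regions around the genes are set beside that share. Within 500 kb of the TRAK2 erased site 8 other regions were marked in all 8 other libraries, and all 8 had a peak in both resistant libraries. Around KCNAB2 there were 13, of which 11 had a peak in both resistant libraries and 2 in neither. Those were the shorter KCNAB2 region and a region 94.6 kb below the site (chromosome 1, 5988225 to 5989907; 308 to 1487 bp in the 8 other libraries). Around VEPH1 there were 4, all at lower coordinates, of which 3 had a peak in both and 1 in neither (chromosome 3, 156847474 to 156849545; 564 to 1469 bp). The nearest kept region lay 27.3 kb from the TRAK2 site, 29.4 kb from the KCNAB2 site and 201 kb from the VEPH1 site. DNA copy number was not measured here, so loss of the mark and loss of the DNA of a site cannot be told apart.

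Across the genome, absence from the resistant pair was common at short regions and infrequent at regions as long as these. Of 13141 regions marked in all 8 other libraries, 786 (5.98%) had no peak in either resistant library and 268 had one in a single resistant library. By their mean covered length over the 8 libraries (5754, 5015 and 3144 bp), the TRAK2, KCNAB2 and VEPH1 sites ranked 9, 12 and 26 among the 786, whose median was 863 bp. Of regions with a mean of at least 1000 bp 2.40% had no resistant peak, and of those with at least 2000 bp 0.571%. Where the mean was at least 3000 bp, 27 of 6180 regions (0.437%) had no resistant peak, and the 3 sites are among those 27. The longest regions just outside the choice, with a peak in 1 resistant library, were at 4p11 (chromosome 4, 49093278 to 49102009; 335 bp in resistant 2), 4p16.3 (chromosome 4, 3545578 to 3551348; 680 bp in resistant 1) and 19q13.32 (chromosome 19, 47593496 to 47599109; 413 bp in resistant 1). The same count for the other groups, each against the 8 remaining libraries, was 251 of 12506 (2.01%) for colony, 18 of 12128 (0.148%) for GFP, 4 of 12107 (0.0330%) for parental and 0 of 12089 for NRAS Q61K cells.

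**Figure D4:**
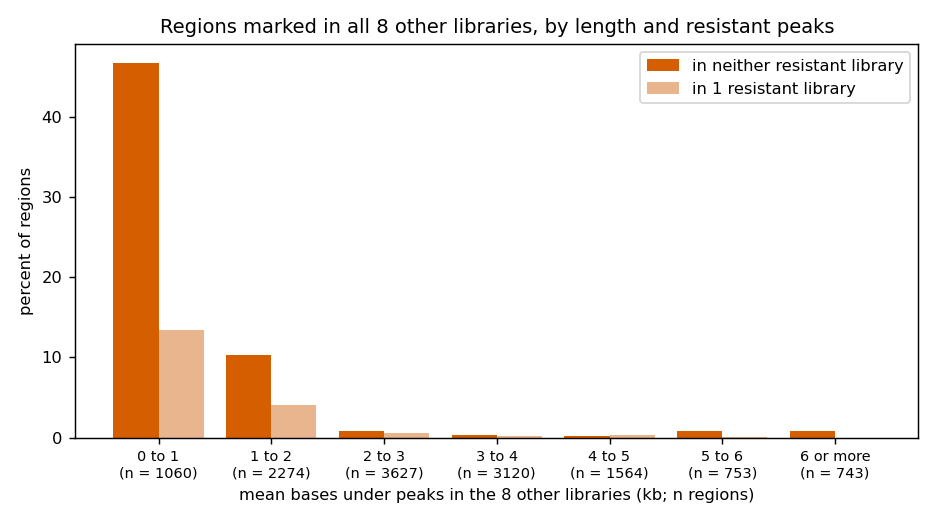
Share of regions (vertical axis, percent) that had a peak in neither or in 1 resistant library, among regions marked in all 8 other libraries, by the mean number of bases under peaks in those 8 (horizontal axis, kb; n is the number of regions). The share in neither falls from 46.8% below 1 kb to 0.353% at 3 to 4 kb, the class of the VEPH1 site, and is 0.797% at 5 to 6 kb, the class of the TRAK2 and KCNAB2 sites.

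Regions whose widths ran most alike over the 10 libraries were other regions empty in the resistant pair. For TRAK2 they lay at 10p15.3 (chromosome 10, 96950 to 102541; Pearson's r = 0.999), 18p11.32 (chromosome 18, 50964 to 57015; 0.998) and 7p14.3 (chromosome 7, 30201799 to 30204023; 0.998). For KCNAB2 they were the same 10p15.3 region (0.997), 1p13.3 (chromosome 1, 109358324 to 109361022; 0.997) and the 18p11.32 region (0.997). For VEPH1 they were 2p23.3 (chromosome 2, 27308160 to 27310664; 0.999), the 7p14.3 region (0.998) and 21q22.3 (chromosome 21, 47563479 to 47564293; 0.997). Among themselves the 3 sites had r of 0.990 to 0.997. These values describe 10 libraries and rest on the step between the resistant pair and the others, which is shared by choice.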

How the data were processed

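The peak lists of 10 H3K4me3 libraries were used. The 10 inputs were not analysed here. The authors deposited 1 list per library; per the submitters' processing notes BWA, SAMtools, MACS2 2.1.2 and deepTools 2.5.4 were used, on builds named GRCh37 and hg19. Each deposited peak has a score, a fold (ratio of summit over local background), and −log10 p and −log10 q values. These are the authors' own. They served to place summits, to rank and filter the peaks of a list against that same list, and to solve summit reads. Positions were turned into positions counted from 1. No read counts are at hand, so depth is unknown apart from summit reads. These were solved from fold and p under a Poisson model with 1 added to both terms, and matched whole numbers within 0.0005 in −log10 p for 100% of the peaks sampled in each list.

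Peaks on autosomes and X (306295) within 1000 bp were merged. Log2(bases under peaks + 200) was centred on regions covered in all libraries and fitted with limma 3.58.1 (R 4.3.3; 5 group means, eBayes with trend, Benjamini-Hochberg over the 23153 regions that 2 or more libraries marked, threshold 0.05). On simulated data for resistant against colony cells (31418 regions), 80% of log2 changes of 1 and 97% of 2 were recovered, with 10 false calls. Those changes were planted only in regions covered in all 10 libraries. Recovery of changes below 1, such as those called at the erased sites, was not simulated. Python 3.11.15 with scipy 1.17.1 did the rest, and bands came from circlize 0.4.16. Members and lists were chosen with earlier results of these data known. The text names the 3 genes, all their regions and, per erased site, the 3 regions of highest Pearson's r. Relatives and marker genes listed for this work could not be placed on GRCh37 and were not analysed. Alternatives were a stricter peak threshold, other merging, pseudocounts, no centring, no filter, a replicate block, no trend, 2-group fits, lists of equal length, 200 bp overlap and leaving out each library.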

Additional observations from a re-analysis of the deposited data

How the results depend on the processing

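The 3 erased sites stayed in the count of regions empty in the resistant pair under every alternative, as they had to. No alternative could add a resistant peak, and their top peaks in other libraries (−log10 q over 24.4) passed each cut. Regions with peaks in all other libraries and no resistant peak numbered 786. Their number became 367 when only peaks at or above a −log10 q of 10 were kept and 311 with lists of equal length. It was 788 to 1094 with 1 library left out, where a condition on fewer libraries could only keep or raise the number.

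Regions called by limma with −log10 q of 10 or more numbered 3236 for resistant against colony, 3165 for resistant against parental, 2061 for colony against parental, 660 for NRAS Q61K set against GFP and 419 for GFP set against parental, where main values were 5202, 6615, 4865, 1675 and 1010. With only 2 groups in a fit they were 11949 for resistant against colony and 0 in both comparisons that hold GFP cells, where the fit of 5 groups gave 1675 and 1010 and 4261 and 3381 had an unadjusted limma p under 0.05. Merging overlapping peaks only gave 2837 (NRAS Q61K against GFP) and 2216 (GFP against parental). GFP against parental gave 638 with 1000 bp added and 566 with no filter. Leaving out 1 library gave 3795 to 4444, 4064 to 5633, 3602 to 4439, 119 to 1036 and 344 to 730 in the order above. Without centring, wider and narrower calls became 1420 and 5305 for resistant against colony (from 2540 and 2662), 882 and 7279 for resistant against parental (from 1836 and 4779) and 980 and 256 for GFP against parental (from 618 and 392).

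The wider TRAK2 site in colonies (log2 change 0.36) missed the threshold of limma with no trend (adjusted p = 0.0506) and in the 2-group fit (0.0723), and its range was 0.27 to 0.45 with 1 library left out. KCNAB2 in NRAS Q61K (0.55) missed it in the 2-group fit (limma adjusted p = 0.100; range 0.44 to 0.65 with 1 library left out). KCNAB2 in GFP (-0.46) missed it with −log10 q of 10 or more (-0.30), without centring (-0.33) and in the 2-group fit (limma adjusted p = 0.197; range -0.48 to -0.43 with 1 library left out). TRAK2 in NRAS Q61K against GFP ranged from -0.10 to 0.048 with 1 library left out and changed sign without GFP 2 (0.048) and without NRAS Q61K 1 (0.01).

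Signs of differences that were not called also changed in other regions. For the kept KCNAB2 region this was so with −log10 q of 10 or more in NRAS Q61K against GFP (0.11) and GFP against parental (-0.16), without centring in resistant against colony (-0.18) and parental (-0.049), without parental 1 in colony (-0.031; 0.25 without parental 2) and GFP (-0.069; 0.21 without parental 2) against parental, and without GFP 1 in GFP against parental (-0.020) and NRAS Q61K against GFP (0.0012). For the shorter KCNAB2 region it was so with −log10 q of 10 or more in NRAS Q61K against GFP (-1.08), and for the kept TRAK2 region in NRAS Q61K against GFP without GFP 1 (0.064; -0.11 without GFP 2). For the small TRAK2 region it was so without parental 2 in colony against parental (0.033, and -0.085 without parental 1). It was also so, there for a called difference, with −log10 q of 10 or more in GFP against parental (-0.069). In both cases neither group had a peak in the region, so these values come from centring alone.

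The labels give no sign that replicate numbers pair libraries of different groups, and differences between replicates correlated across groups by -0.07 to 0.08. With the replicate block 608 regions were called in GFP against parental. The block changed the call of 2 regions named above, the kept TRAK2 region against parental (limma adjusted p = 0.0645) and the shorter KCNAB2 region in colonies (0.0745), and no other. Where 1 library was left out, the remaining one of its group was assumed to vary like the other groups. The weakest 500 peaks of a list began at 9 to 15 stacked reads. Sequencing depth is unknown, so what it limits could not be measured.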
